A study of Mus musculus with 8 samples.

Results

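The late response of quiescent neural stem cells (qNSCs) to bafilomycin A (BafA) was taken from 4 of the 8 arrays of the series, the 2 labelled BafA 24 h and the 2 labelled control 24 h. All cells belonged to 1 NSC line made from ICR mouse embryos (ventral telencephalon), passaged repeatedly before use, and all had been held in quiescence medium with BMP for 3 days. At time zero every group received new quiescence medium, with 20 nM BafA in the BafA 24 h and BafA 4 h groups and without it in the control 24 h and control 4 h groups, and RNA was taken 24 h or 4 h later. Each group has 2 arrays, and the arrays of 4 h were used only to set the late effect against the early effect. Whether both arrays of a group stand for independent cultures is not given in the sources used here, so that p-values rest on a spread between arrays that may be technical.

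BafA blocks the V-ATPase, the proton pump that acidifies lysosomes, endosomes and parts of the Golgi. In a lysosome that is not acidic the hydrolases work poorly, so that membrane receptors and other cargo delivered there are not broken down. BMP holds cultured NSCs out of the cell cycle, in a state that shares many transcripts with astrocytes.

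The deposited signal of a probe is its spot intensity less the level of the blank spots, on a scale on which each array has a median of 25. A value was given for 21715 to 22077 of 23473 probes on the arrays of 24 h, and the 20938 probes with a value on all 4 of these arrays were tested. With limma at an adjusted p under 0.05, 2848 probes were higher with BafA (13.6% of those tested) while 2533 (12.1%) were lower. At an unadjusted p under 0.05 there were 7602. The median log2 fold change over all probes was 0.04. The rule of the study's methods, a ratio of group means of at least 2 or at most 0.5, took 934 probes as higher (4.46%) and 1118 as lower (5.34%). Control replicate 1 had other gain slopes in its scanner output than the other 3 arrays of 24 h. This was read as another scan setting. The median absolute difference between the arrays of a group was 0.15 for BafA and 0.19 for control on the log2 scale. The calls were lost in the 3 remaining arrays when either BafA array was left out, where the spread comes from the control arrays alone. Fits without 1 control array have the same 1 residual degree of freedom and kept part of the calls.

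At the level of genes, 14954 named genes were tested, of which 2100 were higher with BafA (14.0%) and 1976 lower (13.2%), with a median log2 fold change of 0.04. Genes of stronger signal passed more often. Of the 7067 with a mean of at least 50 in either group, 21.3% were higher and 16.0% lower. The counts of gene lists below are given over all tested members, for which 14.0% and 13.2% are the shares over all named genes. Lists differ in signal, and those of mostly bright genes are better read against 21.3% and 16.0%. For example, 79 of 85 respiratory chain genes and 35 of 43 autophagy genes had a mean of at least 50, against 38 of 538 olfactory and vomeronasal receptors. Of the 99 list counts of at least 4, 46 moved by over 1.5 times under an alternative that keeps all arrays of 24 h or without 1 array in the fit to all 8 arrays. These lists and the rule that names genes were drawn up with earlier results of these data known. The lists of sterol, hypoxia and stress genes had 32, 32 and 35 members higher of 39, 39 and 56 tested, and 3, 1 and 5 lower, and are otherwise left aside here. Genes named by the rule were chosen to have no overlap between BafA and control arrays, which 33.2% of all probes had in the higher direction and 28.3% in the lower, so nothing is read from it.

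**Figure D1:**
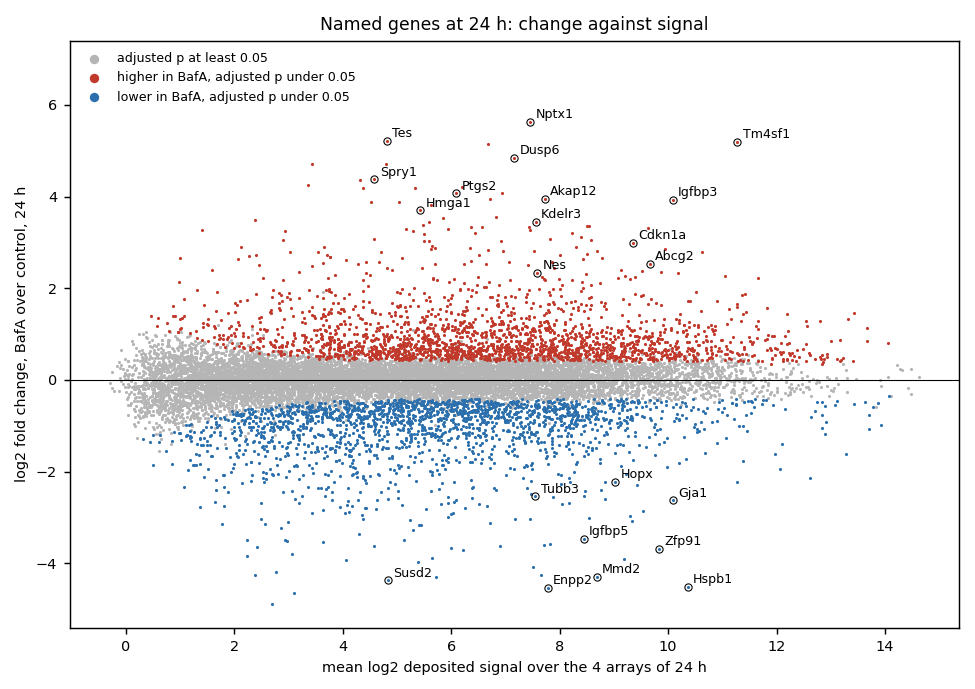
Each point is a named gene, with its mean log2 signal over the 4 arrays of 24 h on the x axis and its log2 fold change of BafA over control on the y axis. Genes higher with BafA are red and genes lower are blue, both at an adjusted p under 0.05, and circled genes are named. The changes spread over the whole range of signals, from Spry1 and Tes, near the array median, to Tm4sf1 at the bright end.

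The largest rises at 24 h were in genes of several functions. Of the 20 named genes that rose most, 5 belonged to the hypoxia and stress lists (Chac1, Hk2, Vegfa, Mthfd2 and Adm), and the others ran from secreted proteins to enzymes of tRNA modification. Nptx1, a secreted pentraxin that clusters glutamate receptors at synapses, had signals of 1291 and 1178 on the BafA arrays, against 21.3 and 28.8 on the control arrays (log2 fold change 5.64 ± 0.17, SE, adjusted p = 4.0e-07). Both BafA arrays were close to each other, and the ratio of the means was 49.3. Tes, a LIM protein of focal adhesions, had 159.5 and 184 on the BafA arrays, against 4.1 and 5.2 on the control arrays (log2 fold change 5.21 ± 0.16, SE, adjusted p = 4.1e-07). Tm4sf1, a membrane protein of the L6 family, had 14838 and 15230 on the BafA arrays, against 257 and 651 on the control arrays (log2 fold change 5.20 ± 0.34, SE, adjusted p = 1.2e-05). It was among the brightest genes of the BafA arrays, and its control arrays differed from each other by more than a factor of 2. 1600014C23Rik, which has no function given in the sources used here, had 131 and 153 on the BafA arrays, against 5.5 and 5.3 on the control arrays (log2 fold change 4.71 ± 0.14, SE, adjusted p = 4.0e-07).

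Several of the large rises were in secreted proteins or in enzymes that make secreted signals. Igfbp3, which binds insulin-like growth factors outside the cell, had 3865 and 4669 on the BafA arrays, against 304 and 254 on the control arrays (log2 fold change 3.93 ± 0.15, SE, adjusted p = 7.9e-07). Its relative Igfbp5 went the other way, with 113 and 96.8 on the BafA arrays, against 1395 and 964 on the control arrays (log2 fold change -3.47 ± 0.19, SE, adjusted p = 4.7e-06). Igfbp3 was thus higher and its relative lower. Clcf1, a cytokine of the IL-6 family that signals through the CNTF receptor, had 165 and 206 on the BafA arrays, against 10.8 and 15.9 on the control arrays (log2 fold change 3.82 ± 0.20, SE, adjusted p = 4.1e-06). Ptgs2, the inducible cyclooxygenase that starts prostaglandin synthesis, had 262 and 297 on the BafA arrays, against 12.9 and 21.3 on the control arrays (log2 fold change 4.07 ± 0.22, SE, adjusted p = 4.7e-06). Angpt2, a ligand of the receptor Tek, had 1070 and 1260.3 on the BafA arrays, against 114 and 114 on the control arrays (log2 fold change 3.35 ± 0.14, SE, adjusted p = 1.2e-06), and its relative Angpt1 was lower, with 94.6 and 98.5 on the BafA arrays, against 172 and 142 on the control arrays (log2 fold change -0.69, adjusted p = 0.0081). Pdgfc, a ligand of the PDGF receptors, had 429 and 471 on the BafA arrays, against 86.4 and 113 on the control arrays (log2 fold change 2.18, adjusted p = 2.5e-05). Over the 38 growth factor ligands tested, 9 rose and 3 fell, with a median log2 fold change of 0.19.

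Inside the cell, the largest rises took in a scaffold, chromatin proteins and a tRNA enzyme. Akap12, a scaffold that holds protein kinase A at the membrane, had 841 and 821 on the BafA arrays, against 52.1 and 55.4 on the control arrays (log2 fold change 3.95 ± 0.13, SE, adjusted p = 6.0e-07). Hmga1 and Hmga2 are small proteins that bend DNA at AT-rich stretches, and Hmga2 is known for its high level in fetal neural stem cells. Hmga1 had 165 and 147 on the BafA arrays, against 12.3 and 11.6 on the control arrays (log2 fold change 3.71 ± 0.14, SE, adjusted p = 7.2e-07). Hmga2 had 61.7 and 69.7 on the BafA arrays, against 11.3 and 12.9 on the control arrays (log2 fold change 2.44 ± 0.15, SE, adjusted p = 7.3e-06). The arrays of each group lay close together for both genes. Ctu2, which adds sulfur to the wobble base of some tRNAs, had 373 and 405 on the BafA arrays, against 32.8 and 33.2 on the control arrays (log2 fold change 3.56, adjusted p = 7.4e-07). Kdelr3, a receptor that returns proteins of the endoplasmic reticulum (ER) from the Golgi, had 578 and 674 on the BafA arrays, against 49 and 66.1 on the control arrays (log2 fold change 3.45, adjusted p = 3.5e-06). Tnfrsf22, a decoy receptor for TRAIL in mice, had 116 and 138 on the BafA arrays, against 8.7 and 8.5 on the control arrays (log2 fold change 3.88, adjusted p = 7.2e-07). Lor encodes loricrin, known from the outer layer of skin, and had 181 and 212 on the BafA arrays, against 17.1 and 16.9 on the control arrays (log2 fold change 3.53, adjusted p = 1.1e-06).

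**Figure D2:**
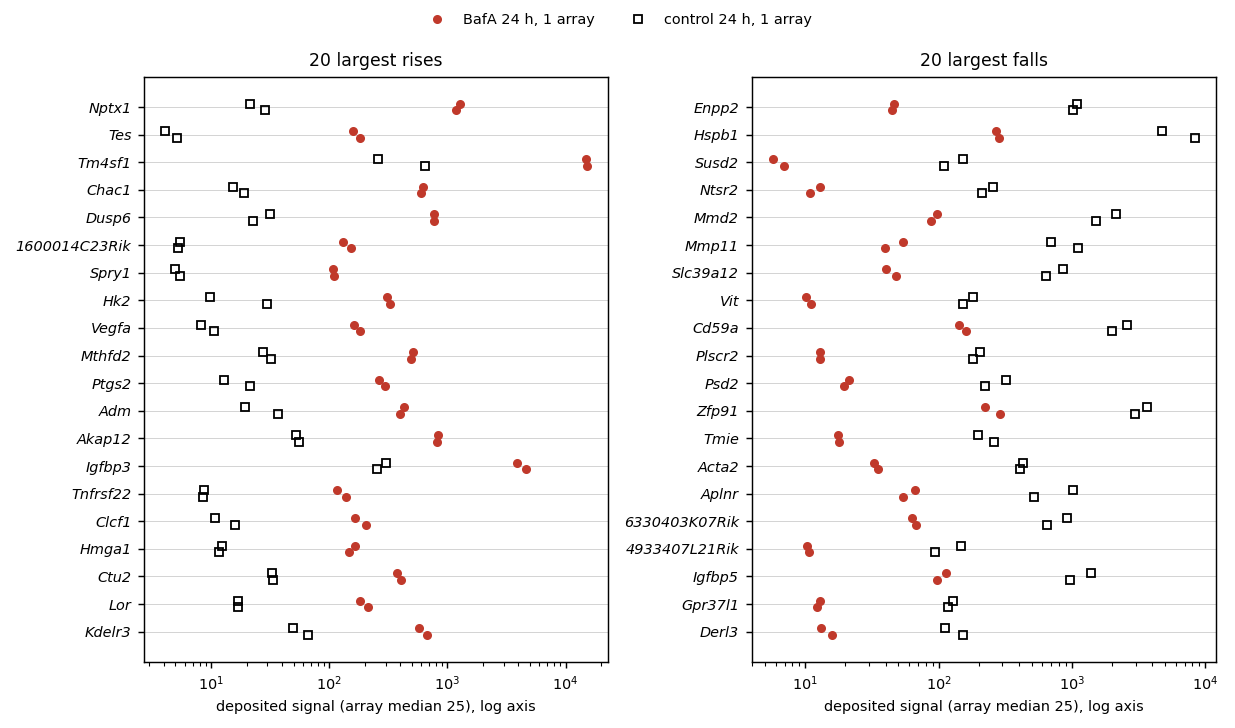
Deposited signal on each array of 24 h for the 20 named genes that rose most (left) and the 20 that fell most (right), on a log axis, with BafA arrays as red circles and control arrays as open squares. Non-overlapping arrays were a condition for the choice of the 40 genes, and Tm4sf1 and Hk2 show the widest gap between the control arrays among the rises.

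The largest falls were in genes of several functions, among them secreted enzymes, membrane proteins and receptors. Enpp2 encodes autotaxin, the secreted enzyme that makes lysophosphatidic acid (LPA), and had 46.2 and 44.8 on the BafA arrays, against 1095 and 1019 on the control arrays (log2 fold change -4.54 ± 0.13, SE, adjusted p = 4.0e-07). The mean was 23.2-fold lower with BafA. Of the receptors of LPA named by the rule, Lpar1 had 52.6 and 48 on the BafA arrays, against 381 and 448 on the control arrays (log2 fold change -3.04 ± 0.15, SE, adjusted p = 2.7e-06). Lpar6 had 231 and 248 on the BafA arrays, against 36.1 and 46.9 on the control arrays (log2 fold change 2.54 ± 0.16, SE, adjusted p = 1.0e-05). Enpp2 and Lpar1 were lower and Lpar6 higher. Cd59a, which blocks the final step of complement attack on a cell's own membrane, had 142 and 160.5 on the BafA arrays, against 2586 and 1994 on the control arrays (log2 fold change -3.91 ± 0.16, SE, adjusted p = 1.1e-06). Susd2, a membrane protein with a sushi domain, had 5.7 and 6.9 on the BafA arrays, against 154 and 109 on the control arrays (log2 fold change -4.37 ± 0.19, SE, adjusted p = 1.4e-06). Aplnr, the receptor for apelin, had 66.6 and 54.5 on the BafA arrays, against 1026 and 515 on the control arrays (log2 fold change -3.59 ± 0.28, SE, adjusted p = 2.9e-05). Its control arrays stood about a factor of 2 apart.

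Other genes among the 20 largest falls act in transport, in the matrix and in the nucleus. Slc39a12, a zinc importer of the brain, had 40.3 and 48.3 on the BafA arrays, against 858 and 644 on the control arrays (log2 fold change -4.07, adjusted p = 1.4e-06). Mmp11, a secreted protease of tissue remodelling, had 53.6 and 39.5 on the BafA arrays, against 695 and 1106 on the control arrays (log2 fold change -4.25, adjusted p = 4.7e-06). Vit, the matrix protein vitrin, had 10.1 and 11.1 on the BafA arrays, against 179.8 and 152 on the control arrays (log2 fold change -3.97, adjusted p = 7.2e-07). Arrays that do not overlap between the groups were a condition for naming all 3. Zfp91, a zinc finger protein that also acts as a ubiquitin ligase, had 224 and 289.5 on the BafA arrays, against 3629.6 and 2955 on the control arrays (log2 fold change -3.68 ± 0.17, SE, adjusted p = 1.9e-06). It was the brightest of these falls after Hspb1, a small heat shock protein of the stress list, with 269 and 282 on the BafA arrays, against 4704 and 8333 on the control arrays (log2 fold change -4.51, adjusted p = 3.7e-06). Psd2, which activates the GTPase Arf6, had 21.2 and 19.6 on the BafA arrays, against 320.5 and 225 on the control arrays (log2 fold change -3.72, adjusted p = 2.8e-06), and Derl3, a protein of ER-associated degradation, had 13.2 and 15.9 on the BafA arrays, against 111 and 152 on the control arrays (log2 fold change -3.17, adjusted p = 6.2e-06). Mmd2 had 97.7 and 88.1 on the BafA arrays, against 2158 and 1521 on the control arrays (log2 fold change -4.29, adjusted p = 1.2e-06), and Plscr2, of the phospholipid scramblase family, had 12.8 and 13 on the BafA arrays, against 204 and 180.2 on the control arrays (log2 fold change -3.89, adjusted p = 7.2e-07). Tmie, known for mechanotransduction in hair cells of the ear, had 17.5 and 18 on the BafA arrays, against 198 and 259 on the control arrays (log2 fold change -3.67, adjusted p = 1.5e-06). The genes 6330403K07Rik and 4933407L21Rik have no function given in the sources used here and had log2 fold changes of -3.57 and -3.49.

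Most genes in a list of regulators of growth factor receptor signaling rose. Many of them are feedback genes, which the kinase ERK induces and whose products damp the pathway. Of the 22 ERK feedback and receptor tyrosine kinase regulators tested, 15 rose (68.2%) and 1 fell, with a median log2 fold change of 0.91. Dusp6, the phosphatase that removes the activating phosphates of ERK, had 768 and 769 on the BafA arrays, against 31.5 and 22.5 on the control arrays (log2 fold change 4.85 ± 0.17, SE, adjusted p = 7.2e-07). Spry1, a Sprouty inhibitor of receptor tyrosine kinases, had 108 and 110.5 on the BafA arrays, against 5 and 5.5 on the control arrays (log2 fold change 4.38 ± 0.14, SE, adjusted p = 4.1e-07). Other members past the test in the same direction include the inhibitors Spry2, Spry4, Spred1, Spred2, Spred3 and Errfi1, the phosphatases Dusp4 and Dusp7, and the transcription factors Etv1 and Etv4. The list also holds Ephx1, an epoxide hydrolase, which passed upward as well. The member that fell was Gab1, an adaptor that carries the signal of these receptors onward. It had 381 and 337 on the BafA arrays, against 1141 and 1267 on the control arrays (log2 fold change -1.75 ± 0.14, SE, adjusted p = 3.2e-05). Etv5, Il17rd, Spry3, Cbl, Grb2 and Sos1 did not pass. The count of members that rose ran from 12 to 16 over the alternatives that keep all arrays of 24 h.

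Immediate-early genes, whose products are made within minutes of a stimulus, rose more often at 24 h than all genes. Of 26 tested, 14 rose (53.8%) and 4 fell, with a median log2 fold change of 0.91. Dusp1, a phosphatase of the stress kinases p38 and JNK, had 1123 and 1263 on the BafA arrays, against 113 and 118 on the control arrays (log2 fold change 3.37 ± 0.14, SE, adjusted p = 1.1e-06). Maff, a small Maf transcription factor, had 134 and 138 on the BafA arrays, against 12.9 and 17.1 on the control arrays (log2 fold change 3.19 ± 0.16, SE, adjusted p = 3.7e-06). Egr1, Egr2, Fosl1, Jun, Klf4, Klf6, Myc, Arc, Btg2, Dusp2, Ier2 and Ier3 also passed upward, while Fos, Fosb, Junb and Egr3 did not pass. Nr4a1, an orphan nuclear receptor, was lower, with 21.4 and 24.1 on the BafA arrays, against 63.3 and 50.1 on the control arrays (log2 fold change -1.31 ± 0.16, SE, adjusted p = 3.9e-04). Ier5, a target of the heat shock factor HSF1, had 219.9 and 268 on the BafA arrays, against 402 and 383 on the control arrays (log2 fold change -0.69, adjusted p = 0.0078). Mycn and Srf were the other members past the test downward.

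In the other signaling lists, genes passed in both directions or in few members. Jag1, a Notch ligand, had 88.6 and 89.1 on the BafA arrays, against 5.2 and 6.9 on the control arrays (log2 fold change 3.89 ± 0.17, SE, adjusted p = 1.3e-06), and the Notch list had 4 members higher and 5 lower of 31. Hes1, a repressor that Notch induces, had 147 and 172 on the BafA arrays, against 64.4 and 77.2 on the control arrays (log2 fold change 1.17, adjusted p = 6.1e-04), while Dner, a Notch ligand of another class, had 227 and 202 on the BafA arrays, against 477 and 348 on the control arrays (log2 fold change -0.93, adjusted p = 0.0041). Dtx1, a ubiquitin ligase that acts on Notch, had 137 and 130.2 on the BafA arrays, against 235 and 273 on the control arrays (log2 fold change -0.92, adjusted p = 0.0014). In the TGF-beta and BMP list 8 rose and 5 fell of 46. Its largest rise was Bmper, which binds BMPs, with 152 and 165 on the BafA arrays, against 38.3 and 41.8 on the control arrays (log2 fold change 1.98, adjusted p = 1.7e-05), and its largest fall was the ligand Tgfb3, with 49.7 and 50.9 on the BafA arrays, against 167 and 184 on the control arrays (log2 fold change -1.80, adjusted p = 2.7e-05). Tgfb2 was lower as well, with 258 and 325 on the BafA arrays, against 556 and 564 on the control arrays (log2 fold change -0.95, adjusted p = 0.0017). Of 48 Wnt genes 8 rose and 10 fell (20.8%), among them the receptor Fzd9, with 26.8 and 24.4 on the BafA arrays, against 150.4 and 148 on the control arrays (log2 fold change -2.54, adjusted p = 4.3e-06), and the ligand Wnt4, with 55.7 and 66.6 on the BafA arrays, against 162 and 214 on the control arrays (log2 fold change -1.61, adjusted p = 2.0e-04). The Hedgehog list had 0 higher and 2 lower of 13, and Gas1, its brightest member, had 717 and 796 on the BafA arrays, against 911 and 1069 on the control arrays (log2 fold change -0.39, adjusted p = 0.076). In the YAP and TEAD list 3 rose and 5 fell of 19 (26.3%). Its largest rise was Wwtr1, the coactivator TAZ, with 1169 and 1417 on the BafA arrays, against 353 and 352 on the control arrays (log2 fold change 1.87, adjusted p = 2.6e-05), and its largest fall was Amotl2, which binds YAP, with 20.7 and 16 on the BafA arrays, against 85.4 and 68.9 on the control arrays (log2 fold change -2.08, adjusted p = 4.8e-05).

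Genes induced by interferon and genes of antigen presentation were lower as a group. The proteins of this group sense or block viruses, transmit the interferon signal, or cut and load peptides for display. Of 31 tested, 21 fell (67.7%) and 0 rose, with a median log2 fold change of -1.05, and 19 to 23 fell over the alternatives that keep all arrays of 24 h. Usp18, which limits interferon signaling and strips ISG15 from proteins, had 20.8 and 23.1 on the BafA arrays, against 136 and 152 on the control arrays (log2 fold change -2.71 ± 0.14, SE, adjusted p = 4.0e-06). Gbp2, a GTPase that attacks intracellular microbes, had 68.5 and 81.5 on the BafA arrays, against 329 and 439 on the control arrays (log2 fold change -2.35 ± 0.17, SE, adjusted p = 2.4e-05). The factors that carry the signal to the nucleus were lower in part, with signals of 137 and 162 for Irf9 with BafA, against 297 and 378 in control qNSCs, and of 56.5 and 49.7 for Stat2 with BafA, against 127 and 118 (log2 fold changes -1.17 and -1.21, named after their values were seen). The immunoproteasome subunit Psmb8 had 18.1 and 19.8 on the BafA arrays, against 101 and 74.3 on the control arrays (log2 fold change -2.20, adjusted p = 3.1e-05). The 10 members that did not pass included the bright genes B2m, Ifitm2, Ifitm3 and Ifi27, with log2 fold changes between -0.32 and -0.04. The largest fall of the list, -4.66, was of Ifit3, which is dim, with 1.8 and 1.6 on the BafA arrays, against 45.5 and 40.3 on the control arrays.

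Many such genes carry a sequence known as the interferon-stimulated response element. Promoters of 250 bases before the RefSeq start (GRCm38.p6) were searched on both strands for GAAA, any 2 bases and GAAA again. The match was present in 5 of the 17 promoters at hand of members that fell (29.4%) and in 4 of the 8 of members that did not, against 310 of the 11988 promoters of all named genes tested (2.59%). The 5 promoters of falling members with a match are shown 5′ to 3′, with matched bases in capitals, which read TTTC, 2 bases, TTTC where the match is on the other strand. A match is a description of letters and not evidence of binding.
Ifit3, chr19:34583279-34583528, plus strand: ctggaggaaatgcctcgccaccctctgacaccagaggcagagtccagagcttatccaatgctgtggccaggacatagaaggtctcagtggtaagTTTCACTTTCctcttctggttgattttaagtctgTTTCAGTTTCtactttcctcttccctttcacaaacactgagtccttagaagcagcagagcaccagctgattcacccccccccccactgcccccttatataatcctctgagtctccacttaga
Gbp2, chr3:142620413-142620662, plus strand: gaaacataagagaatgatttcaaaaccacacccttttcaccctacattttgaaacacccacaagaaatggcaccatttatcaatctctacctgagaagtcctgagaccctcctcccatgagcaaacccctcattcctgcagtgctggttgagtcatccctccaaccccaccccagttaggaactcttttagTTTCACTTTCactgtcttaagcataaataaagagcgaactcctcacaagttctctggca
Rsad2, chr12:26456453-26456702, minus strand: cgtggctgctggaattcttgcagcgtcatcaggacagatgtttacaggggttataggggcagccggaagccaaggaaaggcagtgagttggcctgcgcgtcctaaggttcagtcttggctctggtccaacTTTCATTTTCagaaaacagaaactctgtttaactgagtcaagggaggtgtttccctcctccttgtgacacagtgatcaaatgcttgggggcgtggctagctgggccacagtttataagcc
Stat2, chr10:128270248-128270497, plus strand: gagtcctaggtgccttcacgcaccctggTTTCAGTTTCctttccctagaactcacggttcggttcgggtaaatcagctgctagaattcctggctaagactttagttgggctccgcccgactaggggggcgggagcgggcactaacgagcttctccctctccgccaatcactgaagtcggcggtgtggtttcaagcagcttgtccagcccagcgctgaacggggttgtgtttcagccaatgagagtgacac
Bst2, chr8:71537473-71537722, minus strand: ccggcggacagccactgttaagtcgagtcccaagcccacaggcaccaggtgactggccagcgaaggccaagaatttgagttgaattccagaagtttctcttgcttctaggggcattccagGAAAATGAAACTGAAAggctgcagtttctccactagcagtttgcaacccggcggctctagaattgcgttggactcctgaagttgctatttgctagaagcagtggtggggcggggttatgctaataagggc

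Ifit3 has 2 separate matches and Bst2 has 2 that overlap, while the other 3 genes have 1 match each. These genes fell by unequal amounts. Beside the value of Ifit3 above, Gbp2 had a log2 fold change of -2.35, Stat2 of -1.21, Rsad2 of -1.05 and Bst2 of -0.64. Rsad2, the antiviral enzyme viperin, had 63.1 and 64.5 on the BafA arrays, against 134 and 129.8 on the control arrays, and Bst2, which tethers virus particles to the cell, had 84.3 and 82.7 on the BafA arrays, against 129 and 131 on the control arrays.

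Complement and acute phase genes, which many cells switch on in inflammation, passed in 1 direction only. Of 25 tested, 12 fell and 0 rose, with a median log2 fold change of -0.52. C3, the central component of complement, had 27.3 and 21 on the BafA arrays, against 174 and 185 on the control arrays (log2 fold change -2.90 ± 0.16, SE, adjusted p = 5.5e-06). C1qtnf1, a secreted relative of C1q, had 11.6 and 13.8 on the BafA arrays, against 53.2 and 78.8 on the control arrays (log2 fold change -2.36 ± 0.20, SE, adjusted p = 4.8e-05). Serpina3n, Saa3, Lbp, Clu, A2m, Serping1, Cfi, Steap4 and the receptor subunits Il6st and Osmr were the others past the test. Cytokine, chemokine and NF-kB genes moved both ways, 9 up and 7 down of 40. The falls there were led by Ackr3, a scavenger receptor for CXCL12, with 47.8 and 51.3 on the BafA arrays, against 324 and 211 on the control arrays (log2 fold change -2.40, adjusted p = 4.3e-05), and by the alarmin Il33, with 40.2 and 48 on the BafA arrays, against 106 and 219 on the control arrays (log2 fold change -1.79, adjusted p = 0.0018).

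**Figure D3:**
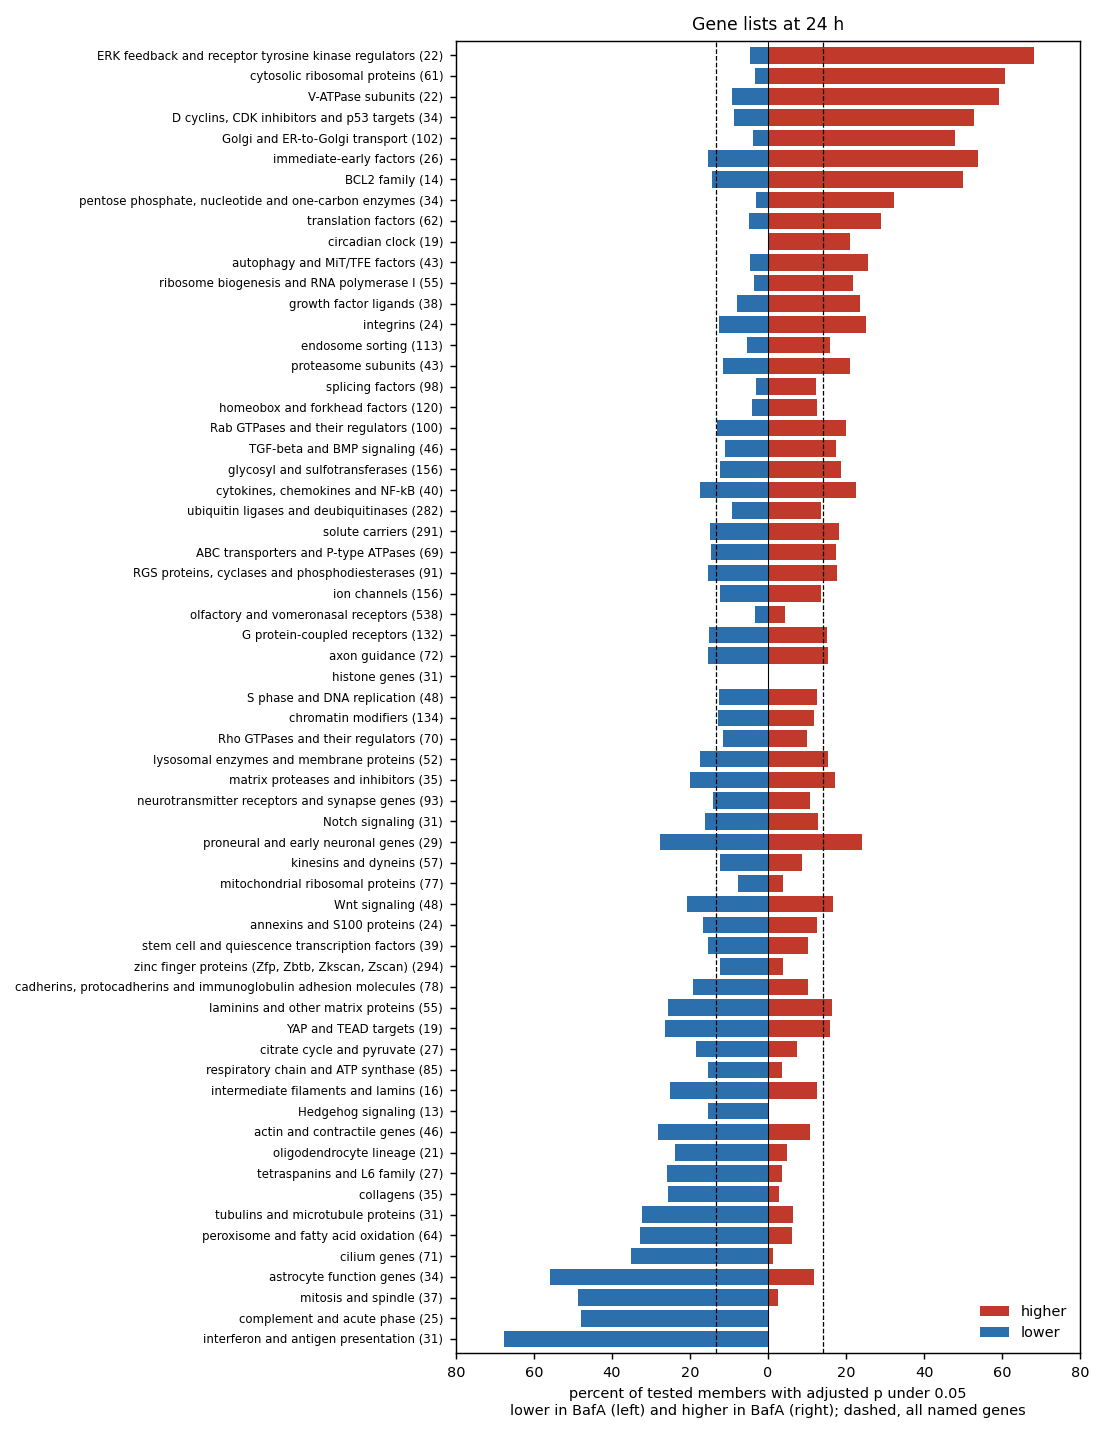
Percent of the tested members of each gene list that passed an adjusted p of 0.05 at 24 h, lower with BafA to the left (blue) and higher to the right (red), with the number tested in parentheses. Dashed lines mark 13.2% lower and 14.0% higher, the shares over all named genes. ERK feedback genes stand at the top with 68.2% higher and interferon genes at the bottom with 67.7% lower, while histone genes have 0 on either side.

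Genes of astrocyte function were lower for the most part. Quiescent NSCs share these genes with astrocytes, where they serve in the uptake of transmitters, in water and ion balance and in coupling between cells. Of 34 tested, 19 fell (55.9%) and 4 rose, with a median log2 fold change of -0.87. Ntsr2, a neurotensin receptor, had 13 and 10.8 on the BafA arrays, against 257 and 211 on the control arrays (log2 fold change -4.30 ± 0.16, SE, adjusted p = 7.2e-07). Outside the list, Gpr37l1, an orphan receptor of glia, had 13 and 12.3 on the BafA arrays, against 128 and 117 on the control arrays (log2 fold change -3.28 ± 0.14, SE, adjusted p = 1.2e-06). Gja1, the gap junction protein connexin 43, had 532 and 362 on the BafA arrays, against 4676 and 1561 on the control arrays (log2 fold change -2.62 ± 0.42, SE, adjusted p = 0.0017). Its control arrays differed by a factor of 3, the higher of them being the array of the other scan setting. Without it, the log2 fold change in the fit to all 8 arrays was -1.83, and with a robust prior Gja1 did not pass (adjusted p = 0.14). Aqp4, Mlc1, Ndrg2, Glul, Apoe, Gjb6, Slc6a11, Fgfr3 and Aldh1a1 were among the other members that fell. F3, tissue factor, which starts coagulation, rose, with 514 and 570.1 on the BafA arrays, against 152 and 109.8 on the control arrays (log2 fold change 2.07, adjusted p = 5.1e-05), as did Fgfbp3, which binds fibroblast growth factors, with 259 and 287 on the BafA arrays, against 80.8 and 73.9 on the control arrays (log2 fold change 1.82, adjusted p = 2.9e-05). Gfap, the intermediate filament of astrocytes and quiescent NSCs and not in the list, had 192 and 229 on the BafA arrays, against 890.3 and 1092 on the control arrays (log2 fold change -2.23 ± 0.16, SE, adjusted p = 1.8e-05).

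Of the 10 measured markers of the neural stem cell identity, 2 passed as higher and 5 as lower, Gfap above among the latter. Over all named genes, 14.0% were higher and 13.2% lower. The summed signal of the 10 was 56647 and 53199 on the BafA arrays and 53422 and 59248 on the control arrays, and the groups overlap in it. The brightest marker has a group mean of 21459, so the sum rests on a few bright markers and hardly shows changes of dimmer ones. Nes, the filament nestin, rose, with 439.7 and 428 on the BafA arrays, against 86.1 and 85.1 on the control arrays (log2 fold change 2.34 ± 0.13, SE, adjusted p = 5.9e-06). Hopx, a homeodomain protein of quiescent stem cells, fell, with 232 and 248 on the BafA arrays, against 1288 and 979.6 on the control arrays (log2 fold change -2.23 ± 0.16, SE, adjusted p = 2.0e-05). Prom1, the membrane protein prominin, had 160.4 and 168 on the BafA arrays, against 423 and 343 on the control arrays (log2 fold change -1.21, adjusted p = 4.2e-04), and Sox9, a transcription factor of glia and NSCs, had 166 and 156 on the BafA arrays, against 239 and 238 on the control arrays (log2 fold change -0.57, adjusted p = 0.013). Id1 and Id3, both induced by BMP, passed in opposite directions. Id1 had 6229.7 and 6544 on the BafA arrays, against 2189.9 and 4959.5 on the control arrays (log2 fold change 0.95, adjusted p = 0.046), and it no longer passed when either BafA array or control replicate 1 was left out of the fit to all 8 arrays (log2 fold change 0.36 without control replicate 1). Id3 had 6901 and 7493 on the BafA arrays, against 9126 and 11974 on the control arrays (log2 fold change -0.54, adjusted p = 0.022), and it no longer passed without BafA replicate 1 or control replicate 2. Fabp7, Slc1a3 and Vim did not pass, with adjusted p of 0.054, 0.069 and 0.056.

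Transcription factors of the lineage changed as single genes. Olig2, a factor of oligodendrocyte progenitors and of NSCs of the ventral forebrain, had 1037 and 1089 on the BafA arrays, against 309 and 315 on the control arrays (log2 fold change 1.77 ± 0.13, SE, adjusted p = 2.1e-05), while the oligodendrocyte list as a whole had 1 higher and 5 lower of 21. Nfix, which acts in NSC quiescence, had 461 and 441 on the BafA arrays, against 983 and 992 on the control arrays (log2 fold change -1.13, adjusted p = 2.4e-04). Klf9, a factor linked to quiescence in NSCs, had 85.9 and 102 on the BafA arrays, against 51.6 and 52.3 on the control arrays (log2 fold change 0.85, adjusted p = 0.0025). In the list of proneural and early neuronal genes 7 rose and 8 fell of 29, led by Cd24a, a surface protein of neuroblasts, with 1175 and 1553 on the BafA arrays, against 229.9 and 370.3 on the control arrays (log2 fold change 2.21, adjusted p = 1.5e-04), and by Nsg2, of neuronal endosomes, with 269 and 279 on the BafA arrays, against 2398 and 1661 on the control arrays (log2 fold change -2.87, adjusted p = 8.8e-06). Foxj1, the master regulator of motile cilia, had 27.7 and 21.8 on the BafA arrays, against 84.7 and 112 on the control arrays (log2 fold change -1.99 ± 0.18, SE, adjusted p = 8.0e-05).

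Markers of cells other than NSCs were summed on each array to compare the groups, list by list. Microglial markers (4 measured) summed to 102 and 91.8 on the BafA arrays and 80.5 and 99.3 on the control arrays, and oligodendrocyte markers (4 measured) to 87.7 and 87.6 on the BafA arrays and 93.1 and 95.9 on the control arrays. Of these, 1 microglial marker passed as lower and 0 others passed. Endothelial markers (2 measured) summed to 76.4 and 79.2 on the BafA arrays, against 33.4 and 28.1 on the control arrays, nearly all of it Kdr, a receptor for VEGF, with 73.3 and 77.5 on the BafA arrays, against 31.8 and 25.9 on the control arrays (log2 fold change 1.39, adjusted p = 2.0e-04). Neuronal markers (5 measured) summed to 127 and 135 with BafA, against 512 and 616 in control qNSCs, most of it Tubb3, with 1 marker higher and 4 lower. Mural and fibroblast markers (6 measured) summed to 85.6 and 90.1 with BafA, against 514.5 and 501 in control qNSCs, most of it Acta2, with 0 higher and 3 lower. With RNA from the whole culture, fewer cells of a type and less RNA per cell cannot be told apart, and the part of other cells in these results was not tested.

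Rises were frequent in a mixed list of cell cycle regulators and p53 targets, and falls in a list of mitosis. The list of D cyclins, CDK inhibitors and p53 targets had 18 higher and 3 lower of 34, with a median log2 fold change of 0.49. Cdkn1a, the CDK inhibitor p21, had 1839 and 1832 on the BafA arrays, against 189 and 283 on the control arrays (log2 fold change 2.99 ± 0.19, SE, adjusted p = 9.1e-06). Pmaip1, the p53 target Noxa, which promotes cell death, had 126 and 124 on the BafA arrays, against 19.5 and 24 on the control arrays (log2 fold change 2.53 ± 0.15, SE, adjusted p = 6.9e-06). Mdm2, Bbc3, Ccng1, Zmat3, Cdkn2a, Ccnd2, Cdk4 and Cdk6 also passed upward, so that the risers hold both CDK inhibitors and CDKs. Sesn1, another p53 target, which inhibits mTORC1, fell, with 77 and 91 on the BafA arrays, against 312 and 225 on the control arrays (log2 fold change -1.66, adjusted p = 2.1e-04). The death receptor Fas also fell, with 306 and 278 on the BafA arrays, against 459 and 546 on the control arrays (log2 fold change -0.78, adjusted p = 0.0041).

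In the mitosis and spindle list 18 of 37 fell (48.6%) and 1 rose, with a median log2 fold change of -0.66. Most of its members are dim in these quiescent cells, and the number that fell ran from 9 to 22 over the alternatives that keep all arrays of 24 h. Spag5, the spindle protein astrin, had 7.2 and 7.2 on the BafA arrays, against 75.9 and 45.7 on the control arrays (log2 fold change -3.03 ± 0.22, SE, adjusted p = 2.1e-05). Nusap1, which bundles spindle microtubules, had 29.9 and 30.7 on the BafA arrays, against 120.2 and 100.4 on the control arrays (log2 fold change -1.86 ± 0.15, SE, adjusted p = 3.1e-05). Mki67, Cdk1, Plk1, Aurka, Ccnb2, Cdc20 and Cenpf were among the others, and Tpx2 was the member that rose. Of 48 genes of S phase and DNA replication 6 rose and 6 fell, with a median of -0.01. Cdt1, which licenses origins of replication, had 314 and 242 on the BafA arrays, against 36.9 and 40.1 on the control arrays (log2 fold change 2.84 ± 0.16, SE, adjusted p = 6.2e-06). Pola1, the catalytic subunit of polymerase alpha, had 108 and 122 on the BafA arrays, against 45.1 and 50.6 on the control arrays (log2 fold change 1.26, adjusted p = 2.7e-04), and Prim1, a primase subunit of the same complex, had 25.1 and 35.2 on the BafA arrays, against 62.8 and 46.9 on the control arrays (log2 fold change -0.87, adjusted p = 0.012). Of 31 histone genes 0 rose and 0 fell, and H3f3b, the brightest, had 4978 and 3780 on the BafA arrays, against 4253 and 4292 on the control arrays (log2 fold change 0.02, adjusted p = 0.94). In the BCL2 family 7 rose and 2 fell of 14, and without 1 array in the fit to all 8 arrays 4 to 7 rose and 0 to 1 fell. The largest rise was of Pmaip1, given above, which promotes cell death. The survival protein Bcl2l2 also rose, with 246 and 229.9 on the BafA arrays, against 107 and 131 on the control arrays (log2 fold change 1.01, adjusted p = 0.0012). Bbc3, Bcl2l1, Bid, Bok and Mcl1 were the other risers.

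Many genes of the secretory pathway rose. Coat proteins, tethers and receptors of this list carry cargo between the ER and the Golgi, an organelle that the V-ATPase also acidifies. Of 102 Golgi and ER-to-Golgi transport genes tested, 49 rose (48.0%) and 4 fell, with a median log2 fold change of 0.42, and 41 to 53 rose over the alternatives that keep all arrays of 24 h. Beside Kdelr3, the rise was led by Copg1, a subunit of the COPI coat, with 242 and 239 on the BafA arrays, against 69.7 and 47.7 on the control arrays (log2 fold change 2.06 ± 0.18, SE, adjusted p = 7.1e-05). Its paralog Copg2 was lower, with 69.1 and 89.5 on the BafA arrays, against 130.4 and 115 on the control arrays (log2 fold change -0.64, adjusted p = 0.02), a call that was lost without BafA replicate 1 in the fit to all 8 arrays. Arf2, a small GTPase that recruits coats, had 91.1 and 131 on the BafA arrays, against 188 and 205 on the control arrays (log2 fold change -0.85, adjusted p = 0.0084). Glycosyl and sulfotransferases showed 29 higher and 19 lower of 156. Ugcg, which makes glucosylceramide, had 79 and 93.8 on the BafA arrays, against 12 and 15.4 on the control arrays (log2 fold change 2.66 ± 0.17, SE, adjusted p = 9.4e-06), Chsy1, a chondroitin synthase, had 100.2 and 112 on the BafA arrays, against 31 and 38.4 on the control arrays (log2 fold change 1.62, adjusted p = 1.0e-04), and Galnt9, which starts O-glycans, had 22.2 and 21.4 on the BafA arrays, against 138 and 217 on the control arrays (log2 fold change -2.99, adjusted p = 1.5e-05).

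**Figure D4:**
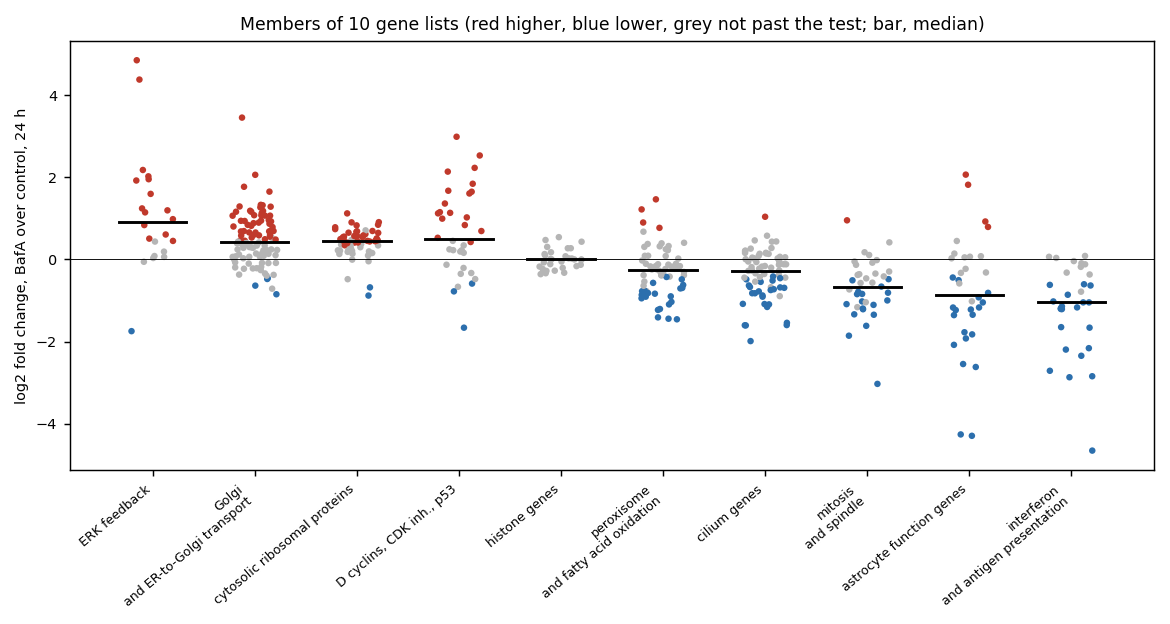
Each point is a tested member of the gene list named below it, with its log2 fold change of BafA over control at 24 h on the y axis. Red points passed as higher, blue as lower, grey did not pass, and the bar is the median over all tested members. Medians run from 0.91 for ERK feedback genes to -1.05 for interferon genes, and members of most lists spread on both sides of 0.

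Subunits of the V-ATPase, the target of BafA, were higher in most cases but by small amounts. Of 22 tested 13 rose and 2 fell, with a median log2 fold change of 0.45, and 6 to 13 rose over the alternatives that keep all arrays of 24 h. The largest rises were Atp6v0a1, with 179.8 and 178 on the BafA arrays, against 94.4 and 91.8 on the control arrays (log2 fold change 0.94 ± 0.13, SE, adjusted p = 8.7e-04), and Atp6v1c1, with 429 and 519.7 on the BafA arrays, against 262 and 282 on the control arrays (log2 fold change 0.80 ± 0.15, SE, adjusted p = 0.0038). Atp6v0a2, a form of the membrane subunit a that is found in Golgi and endosomes, went the other way, with 2062 and 2564 on the BafA arrays, against 6421 and 7635 on the control arrays (log2 fold change -1.61 ± 0.15, SE, adjusted p = 7.9e-05). Lysosomal enzymes and membrane proteins were mixed, with 8 higher and 9 lower of 52. Cd68, a lysosomal membrane glycoprotein, had 1015 and 1179 on the BafA arrays, against 126 and 190 on the control arrays (log2 fold change 2.82 ± 0.20, SE, adjusted p = 1.7e-05). Neu1, the lysosomal sialidase, had 272 and 364 on the BafA arrays, against 130.5 and 160.3 on the control arrays (log2 fold change 1.12, adjusted p = 0.0018). The cathepsins Ctsh and Ctso fell, Ctsh with 222 and 89.7 on the BafA arrays, against 442 and 404 on the control arrays (log2 fold change -1.58, adjusted p = 0.008) and Ctso with 136 and 166 on the BafA arrays, against 294 and 271 on the control arrays (log2 fold change -0.91, adjusted p = 0.0022). Without BafA replicate 2 the log2 fold change of Ctsh was -0.93, and with a robust prior it did not pass (adjusted p = 0.12).

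Autophagy and MiT/TFE genes had 11 higher and 2 lower of 43. Rragd, a Rag GTPase that recruits mTORC1 to lysosomes, had 102 and 119 on the BafA arrays, against 50.4 and 52.3 on the control arrays (log2 fold change 1.10, adjusted p = 5.6e-04). Uvrag, of the Beclin complex, had 144 and 144 on the BafA arrays, against 75.4 and 65.2 on the control arrays (log2 fold change 1.04, adjusted p = 7.2e-04), and Atg10, an enzyme of the ATG12 conjugation, had 68 and 81.5 on the BafA arrays, against 179 and 146 on the control arrays (log2 fold change -1.12, adjusted p = 0.001). Of 113 endosome sorting genes, 18 were higher (15.9%) and 6 lower (5.31%), against 14.0% and 13.2% of all named genes. Of the 81 with a mean of at least 50, 14 were higher and 4 lower. Both shares are under the 21.3% and 16.0% of all genes of that signal. Among all 113, the count of rises ran from 10 to 28 over the alternatives that keep all arrays of 24 h. Snx9, which shapes membranes in endocytosis, had 215 and 232 on the BafA arrays, against 82.8 and 85.2 on the control arrays (log2 fold change 1.41, adjusted p = 9.9e-05). Of the tethering complexes that bring endosome vesicles to the Golgi, Vps54 rose, with 63.8 and 78 on the BafA arrays, against 33.1 and 30.7 on the control arrays (log2 fold change 1.15, adjusted p = 5.9e-04), while Vps51 of the same complex fell, with 96.3 and 95.9 on the BafA arrays, against 184 and 178 on the control arrays (log2 fold change -0.91, adjusted p = 0.001). Among Rab GTPases and their regulators 20 rose and 13 fell of 100, led by Rab3b, a Rab of regulated secretion, with 214 and 193 on the BafA arrays, against 37.7 and 29.6 on the control arrays (log2 fold change 2.60, adjusted p = 8.1e-06). Tbc1d2b, a regulator of Rabs, fell, with 32.8 and 35.5 on the BafA arrays, against 116 and 105 on the control arrays (log2 fold change -1.69, adjusted p = 4.1e-05).

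Cytosolic ribosomal protein genes rose by small amounts. Of 61 tested 37 rose (60.7%) and 2 fell, with a median log2 fold change of 0.44. With quantile normalization 16 rose, and with no variance trend 17. Rpl13a had 1462 and 1443 on the BafA arrays, against 652 and 684 on the control arrays (log2 fold change 1.12 ± 0.12, SE, adjusted p = 2.3e-04), and Rpl22 was lower, with 176 and 178 on the BafA arrays, against 294 and 273 on the control arrays (log2 fold change -0.68, adjusted p = 0.0053). Probes for these genes may also bind transcripts of their many processed copies. Translation factors had 18 higher and 3 lower of 62, led by Eif2ak3, the ER stress kinase PERK, with 574 and 471 on the BafA arrays, against 188 and 164 on the control arrays (log2 fold change 1.57, adjusted p = 1.1e-04), and by Pabpc1, which binds poly(A) tails, with 8151 and 7272 on the BafA arrays, against 2665 and 3056 on the control arrays (log2 fold change 1.43, adjusted p = 6.2e-05). Eif2ak2, the interferon-induced kinase PKR, and Eif4a2, a helicase of initiation, fell, with log2 fold changes of -0.82 and -0.83. In ribosome biogenesis and RNA polymerase I 12 rose and 2 fell of 55. Imp3 and Imp4 belong to the same complex of rRNA processing and went in opposite directions. Imp3 had 1787 and 1804 on the BafA arrays, against 804 and 722 on the control arrays (log2 fold change 1.24, adjusted p = 1.5e-04), and Imp4 had 74.9 and 75.2 on the BafA arrays, against 164 and 183 on the control arrays (log2 fold change -1.21, adjusted p = 2.6e-04). Mitochondrial ribosomal proteins had 3 higher and 6 lower of 77.

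Among genes of fatty acid oxidation and peroxisomes, falls outnumbered rises. Of 64 tested 21 fell (32.8%) and 4 rose, with a median log2 fold change of -0.26. Ech1, which isomerizes unsaturated acyl chains, had 475 and 451 on the BafA arrays, against 1404 and 1154 on the control arrays (log2 fold change -1.46 ± 0.14, SE, adjusted p = 1.1e-04). Ucp2, an uncoupling protein of the inner membrane, had 169 and 168 on the BafA arrays, against 516 and 410 on the control arrays (log2 fold change -1.44 ± 0.15, SE, adjusted p = 1.7e-04). Acot7, a thioesterase of acyl-CoA in neurons, rose, with 95 and 118 on the BafA arrays, against 31.6 and 46.5 on the control arrays (log2 fold change 1.46, adjusted p = 7.5e-04). In the respiratory chain and ATP synthase list 13 fell and 3 rose of 85. That count depended on the setting, from 4 to 50 members lower over the alternatives that keep all arrays of 24 h, and its median log2 fold change was -0.22. The citrate cycle and pyruvate list had 2 higher and 5 lower of 27. Pcx, the pyruvate carboxylase that refills the citrate cycle and that astrocytes express, had 70.3 and 53.2 on the BafA arrays, against 669.8 and 376 on the control arrays (log2 fold change -3.04 ± 0.26, SE, adjusted p = 4.8e-05). Pck2, the mitochondrial enzyme of the step from oxaloacetate to phosphoenolpyruvate, rose, with 303 and 341 on the BafA arrays, against 98.2 and 77.8 on the control arrays (log2 fold change 1.88 ± 0.16, SE, adjusted p = 5.0e-05). Of the isocitrate dehydrogenases, Idh2 of mitochondria had 616 and 658 on the BafA arrays, against 1186 and 1495 on the control arrays (log2 fold change -1.06, adjusted p = 8.4e-04), and Idh1 of the cytosol had 856 and 984 on the BafA arrays, against 626 and 548 on the control arrays (log2 fold change 0.65, adjusted p = 0.009). Of 34 enzymes of the pentose phosphate, nucleotide and one-carbon pathways 11 rose and 1 fell, among them Hprt, which salvages purines, with 677 and 632 on the BafA arrays, against 147 and 200.4 on the control arrays (log2 fold change 1.93, adjusted p = 6.0e-05).

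Among genes of cilia and of the cytoskeleton, falls outnumbered rises. Of 71 cilium genes 25 fell (35.2%) and 1 rose, with a median log2 fold change of -0.27. Beside Foxj1, Rsph1, a radial spoke protein of motile cilia, had 47 and 54.9 on the BafA arrays, against 118 and 109 on the control arrays (log2 fold change -1.16 ± 0.14, SE, adjusted p = 4.5e-04). Ift20, which also sits at the Golgi, was the member that rose, with 569 and 688 on the BafA arrays, against 301 and 308 on the control arrays (log2 fold change 1.04, adjusted p = 7.9e-04). Among actin and contractile genes 13 fell and 5 rose of 46. Acta2, smooth muscle actin, had 32.5 and 35.1 on the BafA arrays, against 429.9 and 406 on the control arrays (log2 fold change -3.63 ± 0.14, SE, adjusted p = 7.2e-07). Cnn2, a calponin, had 104 and 100.3 on the BafA arrays, against 263 and 267 on the control arrays (log2 fold change -1.37, adjusted p = 1.0e-04), and Msn, which links actin to the membrane, rose, with 222 and 266 on the BafA arrays, against 74 and 91.8 on the control arrays (log2 fold change 1.56, adjusted p = 1.6e-04).

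Tubulins and microtubule proteins had 10 lower and 2 higher of 31, with signals that put some of them among the brightest on the array. Tuba1b had 6388 and 5075 on the BafA arrays, against 19206 and 15728 on the control arrays (log2 fold change -1.61 ± 0.15, SE, adjusted p = 7.9e-05). Tubb3, the beta tubulin of neurons, had 77.3 and 78.6 on the BafA arrays, against 408 and 502 on the control arrays (log2 fold change -2.54 ± 0.15, SE, adjusted p = 6.9e-06). Probes for alpha tubulins may bind several near-identical transcripts. Stmn4, of the stathmin family that binds tubulin dimers, rose, with 504 and 594 on the BafA arrays, against 111 and 126 on the control arrays (log2 fold change 2.21, adjusted p = 1.3e-05), as did Map1b, with 59.2 and 64 on the BafA arrays, against 26.7 and 29.5 on the control arrays (log2 fold change 1.13, adjusted p = 3.9e-04). Of the intermediate filaments, Prph, peripherin, had 5.4 and 7 on the BafA arrays, against 46.3 and 85.7 on the control arrays (log2 fold change -3.36, adjusted p = 3.3e-05), and Bfsp2, known from the lens, had 24.4 and 27.7 on the BafA arrays, against 187 and 82.3 on the control arrays (log2 fold change -2.25, adjusted p = 8.0e-04).

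Matrix genes moved in both directions. Collagens had 9 lower and 1 higher of 35, among them Col16a1, with 147 and 123 on the BafA arrays, against 411 and 440.3 on the control arrays (log2 fold change -1.66, adjusted p = 6.2e-05). The small proteoglycans Fmod and Bgn, which bind collagen fibrils, fell. Fmod had 6.6 and 7 on the BafA arrays, against 84.1 and 83.4 on the control arrays (log2 fold change -3.62 ± 0.14, SE, adjusted p = 7.2e-07). Bgn had 31.1 and 27.4 on the BafA arrays, against 197 and 206 on the control arrays (log2 fold change -2.79 ± 0.14, SE, adjusted p = 3.3e-06). Smoc2, a matricellular protein that binds calcium, rose, with 520.2 and 584 on the BafA arrays, against 46.5 and 63.4 on the control arrays (log2 fold change 3.34 ± 0.17, SE, adjusted p = 3.9e-06), as did Spp1, osteopontin, with 2572 and 2637 on the BafA arrays, against 406 and 652 on the control arrays (log2 fold change 2.34 ± 0.20, SE, adjusted p = 5.7e-05). Laminins and other matrix proteins thus had 14 lower and 9 higher of 55.

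Proteases and receptors of the matrix were likewise split. Adamts1, a protease of proteoglycans, had 875 and 903 on the BafA arrays, against 178 and 238 on the control arrays (log2 fold change 2.11, adjusted p = 2.9e-05), and Timp4, an inhibitor of matrix proteases, had 3198 and 3787 on the BafA arrays, against 1067 and 1055 on the control arrays (log2 fold change 1.71, adjusted p = 2.8e-05). Mmp14, a membrane protease, was lower, with 48 and 41.3 on the BafA arrays, against 122 and 94.7 on the control arrays (log2 fold change -1.27, adjusted p = 5.6e-04). Vcam1, an adhesion molecule that helps to hold NSCs in their niche, had 101 and 107 on the BafA arrays, against 689 and 664 on the control arrays (log2 fold change -2.70 ± 0.13, SE, adjusted p = 2.8e-06). Integrins had 6 higher and 3 lower of 24. Itgb5, a receptor for vitronectin, had 176 and 163 on the BafA arrays, against 47.5 and 42.5 on the control arrays (log2 fold change 1.92, adjusted p = 2.2e-05), and Itga6, part of a laminin receptor, had 85.3 and 109 on the BafA arrays, against 170.5 and 182 on the control arrays (log2 fold change -0.87, adjusted p = 0.0035). Tetraspanins and the L6 family had 7 lower and 1 higher of 27, and the riser was Tm4sf1. Of 72 axon guidance genes 11 rose and 11 fell, led by Unc5b, a netrin receptor, with 309 and 347 on the BafA arrays, against 47.1 and 63.7 on the control arrays (log2 fold change 2.58, adjusted p = 1.3e-05), and by Epha5, an ephrin receptor, with 61.4 and 51.5 on the BafA arrays, against 179.7 and 127 on the control arrays (log2 fold change -1.43, adjusted p = 6.0e-04).

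Transporters, channels and receptors passed at about the rate of all genes. Solute carriers had 53 higher (18.2%) and 43 lower (14.8%) of 291. Slc16a3, a lactate exporter that is also in the hypoxia list, had 256 and 276 on the BafA arrays, against 25.9 and 31.6 on the control arrays (log2 fold change 3.22 ± 0.15, SE, adjusted p = 2.3e-06). Slc25a25, which carries ATP and phosphate across the inner mitochondrial membrane, had 319 and 286 on the BafA arrays, against 29.9 and 30.3 on the control arrays (log2 fold change 3.33 ± 0.14, SE, adjusted p = 1.2e-06). Slc14a1, a urea channel of astrocytes, fell, with 30.8 and 37.5 on the BafA arrays, against 175 and 234 on the control arrays (log2 fold change -2.58, adjusted p = 1.6e-05). Abcg2, an efflux pump that marks many stem cells, had 1756 and 2163 on the BafA arrays, against 373 and 304 on the control arrays (log2 fold change 2.53 ± 0.16, SE, adjusted p = 9.4e-06), and Abcc3, another efflux pump, had 4.2 and 4.3 on the BafA arrays, against 42.2 and 98.7 on the control arrays (log2 fold change -3.92, adjusted p = 4.2e-05). Ion channels had 21 higher and 19 lower of 156, with the count of falls running from 6 to 24 over the alternatives that keep all arrays of 24 h. Kcnab1 and Kcnmb4, accessory subunits of potassium channels, were lower, with log2 fold changes of -2.73 and -1.82, and Gabra2, a subunit of the GABA-A receptor, rose, with 54.9 and 49.8 on the BafA arrays, against 10.7 and 7.2 on the control arrays (log2 fold change 2.57, adjusted p = 2.6e-05). Grm3, a glutamate receptor of astrocytes, had 14.9 and 13.6 on the BafA arrays, against 69 and 67.4 on the control arrays (log2 fold change -2.26, adjusted p = 7.4e-06).

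Regulators of G protein signaling and of cyclic nucleotides were near the background, with 16 higher (17.6%) and 14 lower (15.4%) of 91. The G protein-coupled receptors had 20 higher and 20 lower of 132, and 8 to 18 were higher without 1 array in the fit to all 8 arrays. Rgs2 had 195 and 259 on the BafA arrays, against 2269 and 1356 on the control arrays (log2 fold change -2.96 ± 0.24, SE, adjusted p = 3.5e-05). Rgs16 had 969.5 and 925 on the BafA arrays, against 107 and 184 on the control arrays (log2 fold change 2.76 ± 0.23, SE, adjusted p = 4.3e-05). Both proteins speed the shutdown of G protein signals. Rgs4 was lower, with 45 and 53.1 on the BafA arrays, against 112 and 194 on the control arrays (log2 fold change -1.59, adjusted p = 0.0012), and the phosphodiesterase Pde2a was higher, with 80.2 and 80 on the BafA arrays, against 18.9 and 20.9 on the control arrays (log2 fold change 2.01, adjusted p = 1.4e-05).

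In the nucleus and in protein turnover, most lists stayed near or under the background. Zinc finger proteins had 36 lower (12.2%) and 11 higher (3.74%) of 294, and 22 to 53 lower and 3 to 20 higher without 1 array in the fit to all 8 arrays. Chromatin modifiers had 16 higher and 17 lower of 134, splicing factors 12 and 3 of 98, and ubiquitin ligases and deubiquitinases 38 and 26 of 282. Rnf145, a ligase of the ER that responds to sterols, had 1272 and 966 on the BafA arrays, against 165 and 184 on the control arrays (log2 fold change 2.67 ± 0.16, SE, adjusted p = 8.1e-06). Fbxo39, an F-box protein, had 33.9 and 37.8 on the BafA arrays, against 293 and 329.7 on the control arrays (log2 fold change -3.12 ± 0.14, SE, adjusted p = 2.1e-06). Olfactory and vomeronasal receptors, which serve smell, had 24 higher (4.46%) and 18 lower (3.35%) of 538, and without 1 array 12 to 48 higher and 7 to 22 lower. The clock list had 4 higher and 0 lower of 19, and without 1 array 3 to 6 higher and 0 to 4 lower.

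The effect at 24 h was set against that at 4 h to see which changes were late. At 4 h, 225 probes were higher (1.10% of 20473 with a value on all 8 arrays) and 168 lower (0.821%). The difference of both effects passed for 1733 probes as more positive at 24 h (8.46%) and for 1711 as more negative (8.36%). It passed in all 40 genes of the largest rises and falls, of which 8 had also passed at 4 h. These 40 were chosen for large effects at 24 h, and the difference uses the same arrays. The choice thus favoured a large difference, and nothing is read from the count of 40. Of the 20 largest rises 6 had passed at 4 h, and of the 20 largest falls 2. Nptx1 had a log2 fold change of 5.64 at 24 h and 0.58 at 4 h, with a difference of 5.06 (adjusted p = 2.7e-07). For Enpp2 the effects were -4.54 at 24 h and -0.28 at 4 h, with a difference of -4.26 (adjusted p = 2.7e-07).

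A smaller group was moved early and stayed so. Dusp6 had 4.85 at 24 h and 3.66 at 4 h on the log2 scale, and the difference of 1.19 passed (adjusted p = 0.0055). For Dusp1, 3.37 at 24 h stood against 3.23 at 4 h, and for Cdt1 2.84 against 2.81. For Adamts1 the effects were 2.11 and 2.04. In these 3 the difference did not pass (adjusted p = 0.69, 0.96 and 0.87), which does not show that the effects were equal. Nr4a1 turned round, with -1.31 at 24 h and 2.18 at 4 h (difference -3.49, adjusted p = 1.6e-06). Tbc1d2b did so as well, with -1.69 at 24 h and 0.69 at 4 h (difference -2.39, adjusted p = 3.4e-06). Of the 262 genes named by the rule that passed at 24 h, 39 had passed at 4 h, and these were the 2 with opposite signs. Of the hypoxia and stress members among the largest rises, Vegfa and Adm had passed at 4 h, and Chac1, Mthfd2 and Hk2 had not.

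**Figure D5:**
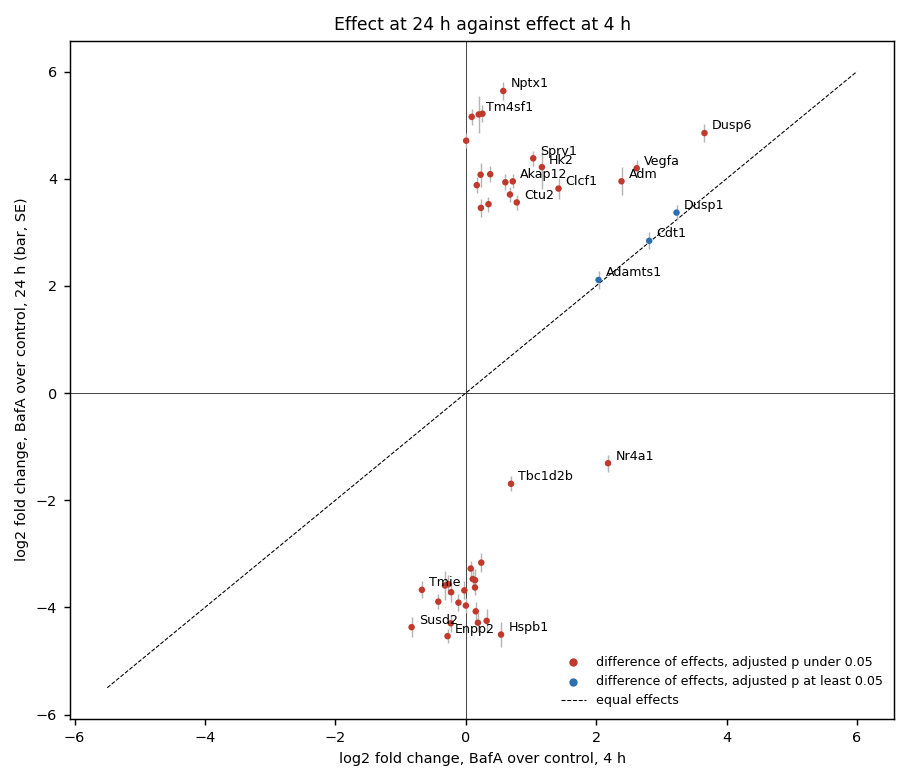
Log2 fold change of BafA over control at 24 h (y axis, bars are SE) against that at 4 h (x axis) for the 40 genes of the largest rises and falls and 5 further named genes. Red points passed the test of the difference of both effects, blue did not, and the dashed line marks equal effects. Most points lie near 0 at 4 h and far from 0 at 24 h, Dusp1, Cdt1 and Adamts1 lie on the line, and Nr4a1 and Tbc1d2b have opposite signs.

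Genes with a value in only 1 of the groups were left out of the test and were dim. Their spots in the other group lay below the limit over the blank spots, so that a fold change is a lower bound against the lowest value given on those arrays. There were 114 probes with a value on both BafA arrays only and 121 with a value on both control arrays only, with median signals of 1.05 and 1.20. The brightest were Tspan8, a tetraspanin, at 15.5 and 17.8 with BafA and at least 22.2-fold higher there, and Capn3, a calpain known from muscle, at 32.2 and 15.2 in control qNSCs and at least 29.6-fold lower with BafA. Both were named after their values were seen.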

How the data were processed

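RNA of 8 samples was hybridized, labelled with Cy5, to single-colour oligonucleotide arrays with 23473 probes for mouse genes. The authors deposited 1 table of signal values, less the blank level and on a scale with an array median of 25, and the scanner output of each array, whose spot intensities are on a linear scale and not normalized. The scaling is given in the methods of the study, and the subtraction was found from the values. A probe has no value where its spot is not clearly above the blank spots, except for 2 brighter spots on the arrays of 24 h. The gain slopes at the head of the scanner output are 0.496 and 0.261 on control replicate 1 of both times and 0.485 to 0.486 and 0.235 to 0.237 for the remaining 6, which was read as 2 scan settings. Their part in the results is given by the alternatives below. All columns were mapped through the labels (0 without a sample).

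Log2 of the deposited signal was fitted with lmFit and eBayes with a variance trend in limma 3.58.1 (R 4.3.3), over 20938 probes with a value on the 4 arrays of 24 h (2 residual and 6.91 prior degrees of freedom), with Benjamini-Hochberg adjustment over all probes and a threshold of 0.05. The difference of the effects at 24 h and 4 h was fitted on all 8 arrays. A log2 fold change is BafA minus control, and ± is SE. An exact test of 2 arrays against 2 cannot give a two-sided p below 0.333 and was not used. Tables were handled in Python 3.11.15.

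The platform annotation names 1 gene for 16631 probes, several for 0 and none for 6842, and 3947 symbols were updated. The probe with the highest mean signal stands for a gene. Of 198 genes with several probes tested, 5 had probes called both ways and 57 had some but not all probes called. The 66 gene lists and all rules were chosen with earlier results of these data known. Named are, among genes past the threshold whose BafA and control arrays did not overlap, the 20 largest rises and 20 largest falls with a mean of at least 100 in either group, and up to 2 rises and 2 falls of each list with a mean of at least 50 (for lists with none, the brightest member), and the cell type markers. Other members of lists were named, after their values were seen, as past the test. Promoters are those of RefSeq on GRCm38.p6, the first listed for a gene, matched for 11988 of 14954 named genes. Of 8 motifs searched in them, the interferon element is given.

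The fit was tested on simulated data with the fitted spread. It called 20 of 67 changes of 1.5-fold (29.9%), 58 of 67 of 2-fold and 65 of 66 of 4-fold with the right sign, and 14 unchanged probes. Far fewer probes were changed in the simulation than the 5381 called at 24 h. Its adjusted threshold was therefore stricter, and these shares do not carry over to the data. A gene that did not pass may still have changed by a modest amount. Alternatives were a pseudocount of 10, a filter on a mean of at least 25 in either group, quantile normalization, normexp with an offset of 50 on the scanner signals, no variance trend, a robust prior, the scan setting or the replicate number as a block, all 8 arrays in the fit, the 6 arrays of 1 scan setting, and leaving out each replicate. Leaving out each array of 24 h in the fit to all 8 arrays was added after seeing the data.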

Additional observations from a re-analysis of the deposited data

Results flagged for a closer look

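The effect of BafA at 24 h differed from that at 4 h, by limma's test of the difference over 8 arrays, in all 40 genes with the largest rises and falls and in 2 further genes whose effects had passed at both times with opposite signs. The highest adjusted p of the difference among the 40 was 0.0078. The values are log2 differences, the effect at 24 h minus that at 4 h. Among the rises, they were 5.06 for Chac1, 5.06 for Nptx1, 5.0 for Tm4sf1, 4.96 for Tes, 4.70 for 1600014C23Rik, 3.85 for Ptgs2, 3.71 for Tnfrsf22, 3.71 for Mthfd2, 3.35 for Spry1 and 3.33 for Igfbp3. They were 3.23 for Akap12, 3.22 for Kdelr3, 3.18 for Lor, 3.05 for Hk2, 3.03 for Hmga1, 2.78 for Ctu2, 2.39 for Clcf1, 1.57 for Vegfa, 1.56 for Adm and 1.19 for Dusp6. Among the falls, they were -5.05 for Hspb1, -4.57 for Mmp11, -4.47 for Mmd2, -4.26 for Enpp2, -4.23 for Slc39a12, -4.07 for Ntsr2, -3.97 for Vit, -3.80 for Cd59a, -3.77 for Acta2 and -3.66 for Zfp91. They were -3.63 for 4933407L21Rik, -3.58 for Igfbp5, -3.54 for Susd2, -3.49 for Psd2, -3.47 for Plscr2, -3.40 for Derl3, -3.35 for Gpr37l1, -3.30 for 6330403K07Rik, -3.27 for Aplnr and -3.0 for Tmie. For Nr4a1 the difference was -3.49, and for Tbc1d2b it was -2.39. Of the 262 named genes past the threshold at 24 h, 220 passed this test. The 40 genes and the 262 were taken by their effect at 24 h, on arrays that this test uses again. That choice favours large differences, so the counts and sizes given here are likely too high. Groups of 2 arrays allow no test for a stray array.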

How the results depend on the processing

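The counts of probes past the threshold at 24 h stayed within 1.5 times of 2848 higher and 2533 lower under each alternative that kept all 4 arrays, and with the 6 arrays of 1 scan setting. The counts were lower in the fits to 3 arrays, each of which leaves 1 residual degree of freedom. They were 395 and 403 without control replicate 1 and 880 and 921 without control replicate 2, and 0 without either BafA array. In the fit to all 8 arrays without 1 array of 24 h, 249 to 258 of the 262 named genes past the threshold remained so and all 40 of the largest rises and falls did. With a robust prior 1 of the 40, Hk2, was lost (adjusted p = 0.051). No named gene past the threshold changed sign under any alternative. H3f3b, which did not pass, had log2 fold changes of -0.23 with quantile normalization, -0.0054 with normexp, and -0.18 without BafA replicate 1, and its range with 1 array left out was -0.18 to 0.22, against 0.02. The difference between 24 h and 4 h ran from 1045 to 1822 probes more positive and from 1137 to 1896 more negative when 1 array was left out, against 1733 and 1711. The lowest values were reached without BafA 24 h replicate 2 (1045) and without BafA 4 h replicate 2 (1137), and without BafA 4 h replicate 1 it was 1063 more positive. By the 2-fold rule, 934 probes were higher and 1118 lower, against 428 and 402 with normexp, which adds an offset of 50, 604 and 580 with a pseudocount of 10, and 709 lower with a mean of at least 25 in either group. These 3 settings shrink or remove dim probes. Leaving out 1 array gave 900 to 1148 higher and 1042 to 1292 lower. The replicate number as a block gave 3132 higher and 2745 lower. The number does not mark a shared culture in the sources used here, and same-numbered deviations from the group means had a correlation across probes of 0.10 (0.18 over probes with a mean of at least 100) in 2 pairs. The scan setting as a block gave 3310 higher and 2923 lower. The lowest deposited values are 0.7 to 0.8, against an SD of the blank spots of 0.44 to 0.50 on the same scale, so that fold changes of the dimmest probes are poorly measured.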
